A study of Mus musculus with 8 samples.

Results

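The BCL-2 family sets the threshold at which a cell permeabilises its outer mitochondrial membrane and commits to apoptosis. The 10 core genes described here were taken by symbol, 3 of them anti-apoptotic (*Bcl2*, *Bcl2l1* and *Mcl1*), 2 of them effectors (*Bax* and *Bak1*) and 5 of them BH3-only (*Bbc3*, *Pmaip1*, *Bcl2l11*, *Bid* and *Bad*). They make up 10 of the 54838 genes counted, and all 10 were among the 12405 genes with enough reads to be tested. RNA-seq was performed on 8 samples of mouse bone marrow leukemic cells carrying *iMLL-AF9*, a doxycycline-inducible allele of the *MLL-AF9* fusion oncogene. The 4 control samples were given dimethylsulfoxide vehicle (DMSO, n = 4) and the other samples were given IOX5, an inhibitor of the HIF prolyl hydroxylases (n = 4). Both groups are labelled wild type and both carry the inducible oncogene, on a C57BL/6 background. The labels call the cells leukaemic stem cells and the series text calls them preleukaemic, and a dose, a treatment time and the meaning of the replicate numbers were not given in the sources used here. The comparison bears on how PHD inhibition stands toward BCL-2-dependent survival, since the study joined PHD inhibitors to venetoclax, an inhibitor of the BCL-2 protein.

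In this family, BAX and BAK form the pores that release cytochrome c. BCL-2, BCL-XL (the main product of *Bcl2l1*) and MCL-1 hold them and the BH3-only activators in check, while BH3-only proteins bind the guardians with different preferences: NOXA (*Pmaip1*) mainly MCL-1, BAD mainly BCL-2 and BCL-XL, and BIM (*Bcl2l11*), PUMA (*Bbc3*) and truncated BID a wide range. Myeloid leukemias commonly lean on MCL-1 and BCL-2. The counts are of mRNA pooled over isoforms. They do not separate the long and short products of *Mcl1*, *Bcl2l1* or *Bcl2l11*, and do not measure protein, cleavage of BID or phosphorylation of BAD.

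Counted reads ranged from 12343770 to 14116054 per DMSO sample and from 11351507 to 12708888 per IOX5 sample, and each member had between 174 and 6156 reads in a sample. Levels are given as CPM, the counts of a gene scaled to the total of its library, after TMM normalization. Differences are log2 fold changes of IOX5 over DMSO from edgeR's quasi-likelihood test, with p-values adjusted by Benjamini-Hochberg over all genes tested and a threshold of 0.05. Samples of the same replicate number in the 2 groups deviated together, so a second fit used that number as a blocking factor. Numbers 3 and 4 also resembled each other, so their pairing is less certain. The p-values measure only the spread between these samples, which may be technical. In bulk samples, fewer cells of a type and less RNA per cell cannot be told apart.

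Without the block, 0 of the 10 members passed the test, against 0.774% of all genes called higher and 1.25% called lower by edgeR; at an unadjusted p under 0.05 there were 3 members higher, beside 8.98% of all genes, and 1 lower, beside 11.2%. Once replicate numbers were blocked, 4 of 10 members had higher counts in IOX5 (*Bcl2*, *Bcl2l1*, *Bax* and *Bbc3*) beside 11.2% of all genes, and 1 of 10 was lower (*Pmaip1*) beside 9.43%. DESeq2 without a block called *Bax* higher (3.94% of all genes) and *Pmaip1* lower (4.85%). Limma voom called *Bax* and *Bbc3* higher (3.43%) and *Pmaip1* lower (4.92%). Higher genes came from all 3 classes in the blocked fit only, as DESeq2 and limma voom called no anti-apoptotic member. In each of these 3 fits the 1 lower gene was BH3-only. The 4 samples of each group did not overlap for *Bcl2l1* and *Bbc3*, both higher (5.98% of all genes), and for *Pmaip1*, lower (8.3%). Within all 4 replicate numbers 6 of 10 members were higher in IOX5 (21.3% of all genes) and 1 was lower in all 4 (19.8%).

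Promoter windows came from the RefSeq table (GRCm38.p6) and ran from 250 bases before to 50 after an annotated start. They were found for 9 of the 10 members, all but *Pmaip1*, in 15 windows. They were searched on both strands for ACGTG and GCGTG, the core letters to which HIF can bind. ACGTG was in 2 of the 15 windows (19.6% of 32851 windows of all genes) and GCGTG in 8 of 15 (32.4%). Windows of the same gene are not independent, and some *Bbc3* windows overlapped. By gene, ACGTG was in 2 of the 9 members and GCGTG in 4, and no share by gene was taken over all genes. GCGTG windows belonged to *Bbc3* and *Bcl2l1*, which rose with the block, and to *Bad* and *Bcl2l11*, which passed neither test. *Pmaip1*, which fell, could not be compared. The ACGTG windows belonged to *Bax* and *Bbc3*, 2 of the 4 members that rose with the block. In both genes ACGTG lay inside CACGTG, which reads the same on both strands, is also the E-box of MYC and related factors, and was in 7.15% of all windows. In *Bax* a further CACGTG lay after the start. *Bcl2*, *Mcl1*, *Bak1* and *Bid* held no match in their windows. A match is a description of letters, not a binding site. Whether a match bears on a member's difference was not tested. The stretches below show these letters upstream of a start of *Bax*, *Bbc3* and *Bcl2l1*, 5′ to 3′ on the gene's strand. Each match is in capitals (CACGC is GCGTG read on the other strand). Stretches were taken only from members higher with the block. The upstream matches of *Bad* and *Bcl2l11*, and further ones of *Bbc3*, are therefore not shown.
*Bax*, chr7:45466899-45466978, minus strand: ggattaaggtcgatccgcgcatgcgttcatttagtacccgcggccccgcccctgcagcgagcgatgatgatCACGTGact
*Bbc3*, chr7:16310351-16310430, plus strand: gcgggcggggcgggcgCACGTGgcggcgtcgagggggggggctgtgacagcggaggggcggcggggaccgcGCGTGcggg
*Bcl2l1*, chr2:152831790-152831869, minus strand: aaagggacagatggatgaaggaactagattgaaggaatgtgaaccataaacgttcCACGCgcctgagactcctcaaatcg
None of the bases shown lies in a GENCODE exon. The *Bbc3* stretch ends at a start inside the annotated gene, and the other stretches lie before the first base of theirs.

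**Figure D1:**
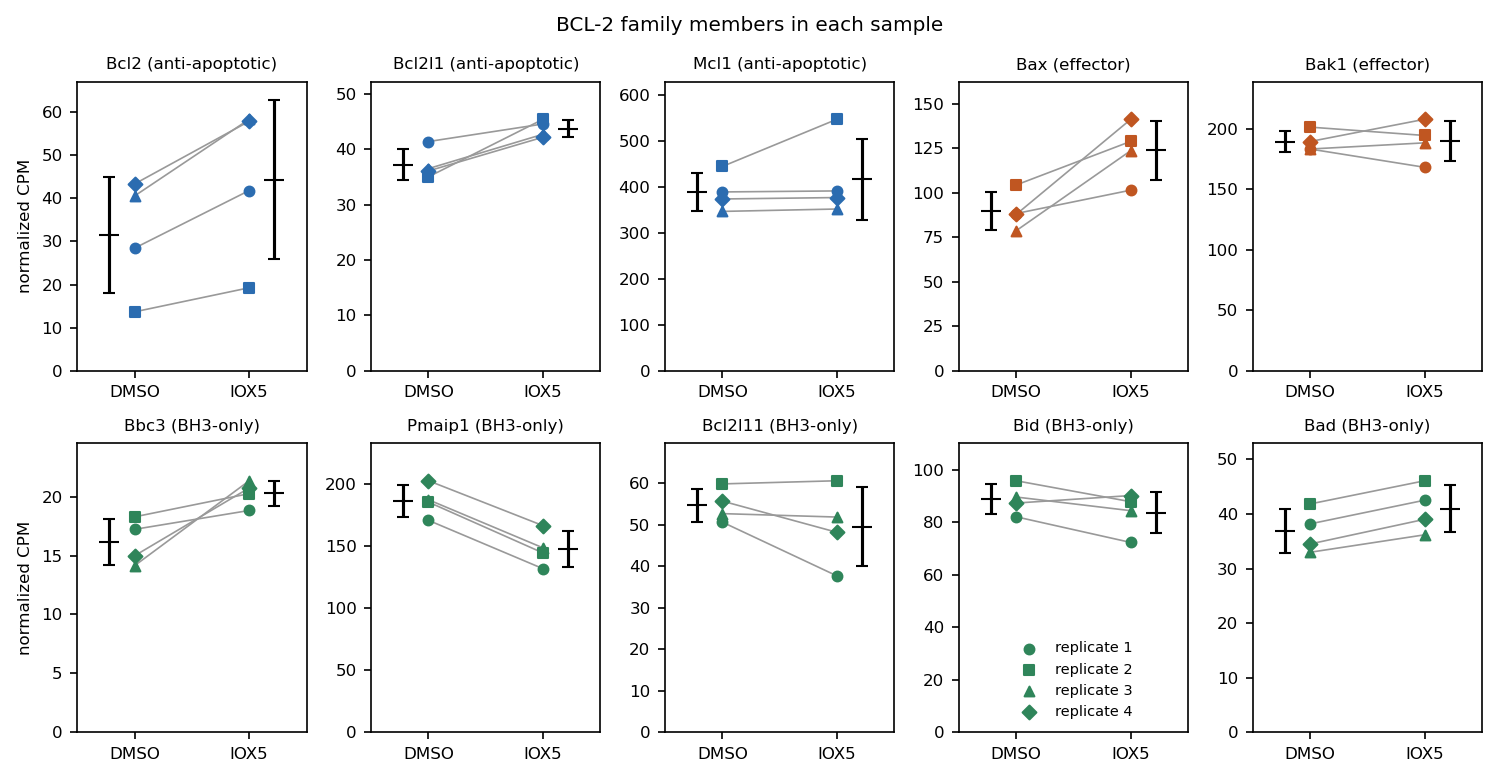
Normalized CPM (vertical axes, starting at 0) of each of the 10 members in the 4 DMSO and 4 IOX5 samples. Grey lines join samples of the same replicate number, and black marks are the mean and SD of each group. *Pmaip1* is lower with IOX5 along all 4 lines, *Bax* is higher along all 4, and *Bcl2* differs more between replicate numbers than between treatments.

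Of the anti-apoptotic genes, *Bcl2* (chr1:106538178-106714274, minus strand, GRCm38) encodes the target of venetoclax. Its CPM in DMSO replicates 1 to 4 was 28.4, 13.7, 40.5 and 43.3, and in IOX5 replicates 1 to 4 it was 41.8, 19.3, 58.3 and 57.8. Replicate 2 was the lowest sample of both groups and the groups overlapped widely, but IOX5 exceeded DMSO within every number, by 0.42 to 0.55 on the log2 scale. *Bcl2* had the largest spread of the 10 members, with a coefficient of variation of 42.9% in DMSO. The means were 31.5 ± 13.5 and 44.3 ± 18.4 CPM (SD, n = 4 each). The log2 fold change was 0.49 (SE 0.408, edgeR adjusted p = 0.539) without the block. It was 0.50 (SE 0.0757, edgeR adjusted p = 0.000822) with the replicate block, and it passed with the block when each replicate number in turn was left out. Progenitor markers also differed by number, in more than one direction. *Cd34*, a surface marker, was at 26.0, 23.2, 133.1 and 153.0 CPM in DMSO replicates 1 to 4 and at 40.4, 35.4, 225.3 and 230.9 CPM in IOX5. *Hoxa10*, a homeobox gene, was at 60.0, 75.1, 31.0 and 33.6 CPM in DMSO, so it was higher in replicates 1 and 2, where *Cd34* was lower. *Meis1* (96.4 to 117.6 CPM in DMSO) and *Hoxa9* (225.0 to 292.5 CPM) varied less. Their part in the spread of *Bcl2* was not tested.

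*Bcl2l1* (chr2:152780668-152831728, minus strand) moved by less and varied by less. It was at 41.4, 35.0, 36.5 and 36.1 CPM in DMSO and at 44.5, 45.4, 42.7 and 42.1 CPM in IOX5. The highest DMSO sample, replicate 1, stayed just below the lowest IOX5 sample. The log2 fold change was 0.23 (SE 0.0725) without the block, where it missed the threshold (edgeR adjusted p = 0.126), and 0.23 (SE 0.0759, edgeR adjusted p = 0.0453) with the replicate block. With the block it missed the threshold whichever number was left out, at edgeR adjusted p from 0.0718 to 0.168.

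*Mcl1* (chr3:95658788-95663176, plus strand), whose short-lived product guards mainly BAK, did not pass either test. Its CPM was 388.8, 444.1, 346.5 and 373.5 in DMSO and 391.0, 546.7, 351.7 and 376.6 in IOX5. The log2 difference of numbers 1, 3 and 4 was 0.0081 to 0.022 and that of replicate 2 was 0.30. The log2 fold change was 0.10 (95% interval −0.22 to 0.42, edgeR adjusted p = 0.732) without the block. With the block it was 0.086 (95% interval −0.064 to 0.24, edgeR adjusted p = 0.403). Without IOX5 replicate 2 it was −0.057.

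Of the effectors, *Bax* (chr7:45461697-45466898, minus strand) was the member with the largest proportional difference after *Bcl2*. It was at 88.4, 104.4, 78.7 and 87.9 CPM in DMSO and at 101.5, 128.9, 123.7 and 141.3 CPM in IOX5. IOX5 replicate 1 fell just below DMSO replicate 2, so the groups overlapped by that 1 sample. Replicates 3 and 4 differed by 0.65 and 0.68 on the log2 scale, and replicates 1 and 2 by 0.20 and 0.30. The means were 89.8 ± 10.7 and 123.8 ± 16.6 CPM (SD, n = 4 each), and the log2 fold change was 0.46 (SE 0.117, edgeR adjusted p = 0.0745). With the replicate block *Bax* rose, at 0.46 (SE 0.0837, edgeR adjusted p = 0.00230), and it did so when any 1 number was left out.

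*Bak1* (chr17:27019810-27029009, minus strand), the other pore former, did not pass the test. It was at 183.3, 201.4, 183.3 and 189.5 CPM in DMSO and at 168.2, 194.5, 188.4 and 207.9 CPM in IOX5. The groups overlapped, with 2 numbers lower and 2 higher. Its log2 fold change was 0.0027 (95% interval −0.16 to 0.17, edgeR adjusted p = 0.989), and with the block the interval ran from −0.14 to 0.14 (edgeR adjusted p = 0.999). Its sign turned under 6 other settings and when some samples were left out.

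The log2 ratio of *Bax* to *Bak1* within a sample ran from −1.22 to −0.95 in DMSO and from −0.73 to −0.56 in IOX5, with no overlap. *Bax* made up 39.6 to 44.2% of the summed effector level per kilobase in DMSO and 48.0 to 50.9% in IOX5. As a ratio of chosen members it was given no test.

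Of the BH3-only genes, *Pmaip1* (chromosome 18), a transcript induced by p53 and by other stress pathways, was the 1 member that fell with the block. It was at 170.9, 185.6, 187.5 and 202.8 CPM in DMSO and at 131.9, 144.6, 148.7 and 166.6 CPM in IOX5. Every IOX5 sample was below every DMSO sample, and the difference within a number was even, from −0.37 to −0.28 on the log2 scale. The means were 186.7 ± 13.0 and 148.0 ± 14.4 CPM (SD, n = 4 each). The log2 fold change was −0.34 (SE 0.0835) and did not pass without the block (edgeR adjusted p = 0.0724). With the replicate block it was −0.34 (SE 0.0612, edgeR adjusted p = 0.00225) and passed without any 1 number. Without IOX5 replicate 4 it passed with no block as well (edgeR adjusted p = 0.0383).

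*Bbc3* (chr7:16308393-16318205, plus strand), which encodes PUMA, went the other way at a level with few reads, 174 to 273 a sample. It was at 17.2, 18.3, 14.1 and 14.98 CPM in DMSO and at 18.8, 20.2, 21.3 and 20.7 CPM in IOX5. The groups did not overlap, and as for *Bax* the differences of replicates 3 and 4 (0.59 and 0.46 on the log2 scale) exceeded those of replicates 1 and 2 (0.13 and 0.15). The log2 fold change was 0.33 (SE 0.108, edgeR adjusted p = 0.143) without and 0.33 (SE 0.106, edgeR adjusted p = 0.0407) with the replicate block. The blocked call was lost without replicate 3 (edgeR adjusted p = 0.242) or replicate 4 (edgeR adjusted p = 0.118), and when trends with gene length and GC content were removed (log2 fold change 0.22, edgeR adjusted p = 0.120). *Bbc3* has the highest GC content of the members, 65.2% of the bases of its longest transcript, followed by *Bax* at 63.6%, and *Pmaip1* has the lowest at 42.1%. With the same trends removed, *Bax* (0.34, edgeR adjusted p = 0.00942) and *Pmaip1* (−0.28, edgeR adjusted p = 0.00650) passed with the block at smaller log2 fold changes.

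The remaining BH3-only members did not pass either test. *Bcl2l11* (chr2:128126038-128162547, plus strand), which encodes BIM, ran from 50.7 to 59.9 CPM in DMSO and from 37.7 to 60.7 CPM in IOX5, where replicate 1 was lowest. Its blocked log2 fold change was −0.16 (95% interval −0.33 to 0.019, edgeR adjusted p = 0.189). *Bid* (chr6:120891930-120916853, minus strand), which links death receptors to mitochondria, ran from 82.1 to 95.8 CPM in DMSO and from 72.3 to 90.2 CPM in IOX5. Its blocked value was −0.087 (95% interval −0.23 to 0.054, edgeR adjusted p = 0.363). *Bad* (chr19:6941861-6951899, plus strand), a sensor of growth factor signalling, ran from 33.0 to 41.8 CPM in DMSO and from 36.2 to 46.1 CPM in IOX5. It was higher within all 4 numbers, by 0.13 to 0.18, with a blocked log2 fold change of 0.15 (95% interval −0.0043 to 0.31, edgeR adjusted p = 0.153). *Bid* shares 628 exon bases with *Bcl2l13* and *Bad* shares 524 with *Gpr137*, both on the opposite strand. The libraries were directional but the strand setting of the counting was not stated, so reads over the shared bases may be missing from these genes or may belong to the neighbour. *Bak1* shares exon bases with *Ggnbp1* on the opposite strand, which had 155 reads over all samples against 18995 for *Bak1*. *Bax* shares 192 exon bases with *Gm45808* on its own strand, and *Bcl2* shares 558 with *D630008O14Rik* on the opposite one. Both of these neighbours had 0 counted reads. Reads over the bases that *Bax* shares may be missing from its count.

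**Figure D2:**
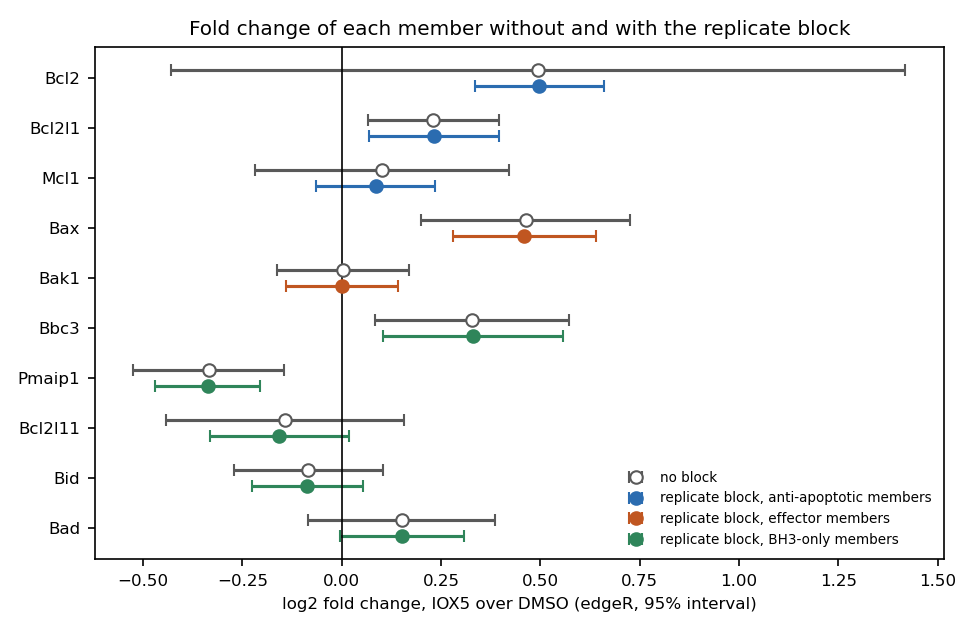
Log2 fold change of IOX5 over DMSO (horizontal axis) for each member with its 95% interval from edgeR, without a block (open, grey) and with the replicate block (filled, coloured by class). The 2 estimates lie close together for every member, and the interval of *Bcl2* narrows most with the block.

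Divided by exon length, the members spanned a wide range of levels. In DMSO the order of mean CPM per kb was *Mcl1* (113.6), *Bak1* (78.7), *Pmaip1* (68.3), *Bax* (57.0), *Bid* (25.0), *Bad* (14.4), *Bcl2l1* (8.12), *Bbc3* (7.61), *Bcl2l11* (6.82) and *Bcl2* (3.44). The neighbours *Pmaip1* and *Bax*, *Bcl2l1* and *Bbc3*, and *Bbc3* and *Bcl2l11* overlapped in range. In IOX5 *Bax* (78.6) was level with *Bak1* (78.8) and above *Pmaip1* (54.2) with no overlap of the latter pair. The lowest gene stayed *Bcl2* (4.84), whose range overlapped that of *Bcl2l11* (6.18). Length was taken as the union of all annotated exons, which exceeds the longest transcript by a ratio of up to 1.79 (*Bcl2l1*). The order turned in places when the longest transcript was used instead, an alternative chosen after seeing the data. *Bax* then stood at 81.7 and 112.6 CPM per kb in DMSO and IOX5, above *Bak1* (79.3 and 79.5) and *Pmaip1* (68.5 and 54.3) in both groups, and *Bcl2l11* (10.9) stood above *Bbc3* (8.91) in DMSO. *Mcl1* stayed highest and *Bcl2* lowest.

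**Figure D3:**
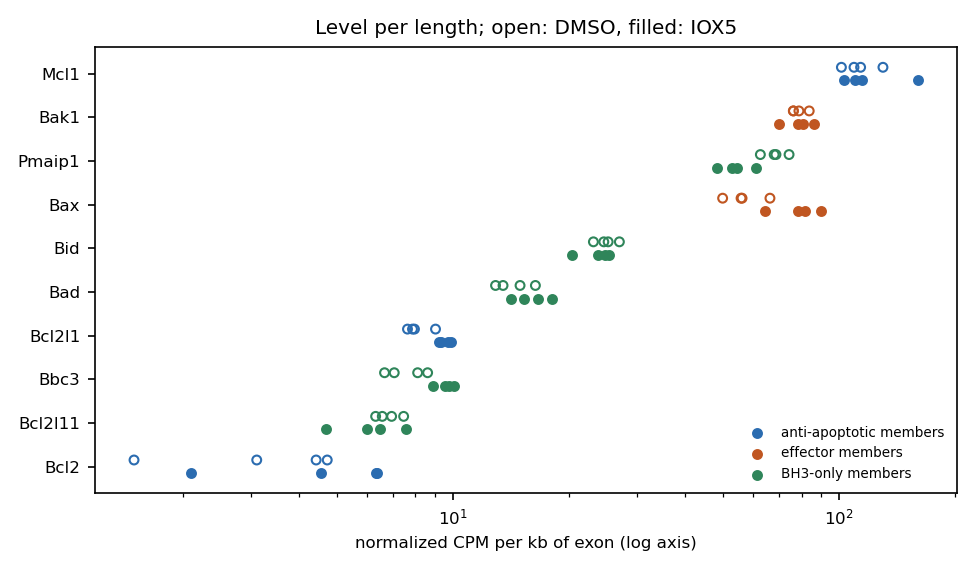
Normalized CPM per kb of exon on a log axis for each member in each DMSO (open) and IOX5 (filled) sample, ordered by the DMSO mean. *Mcl1* is the highest member in both groups and *Bcl2* the lowest, and on this length the *Bax* and *Pmaip1* points change places between the groups.

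Summed per class, the anti-apoptotic level was 125.1 ± 10.6 CPM per kb in DMSO and 136.2 ± 24.2 in IOX5 (SD, n = 4 each). *Mcl1* held 90.7% and 89.1% of that sum, so the class total was mostly *Mcl1*. The effector sum was 135.7 ± 10.1 and 157.4 ± 17.4 CPM per kb, and the BH3-only sum was 122.2 ± 5.76 and 109.5 ± 7.90. *Pmaip1* made up 55.9% of the BH3-only sum in DMSO and 49.4% in IOX5, and *Bbc3* 6.23% and 8.74%.

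The log2 ratio of effectors to anti-apoptotic genes was 0.071 to 0.15 in DMSO and −0.081 to 0.49 in IOX5. It was higher with IOX5 in replicates 3 and 4 and lower in 1 and 2, so the mean difference of 0.10 had no common direction. The ratio of BH3-only to anti-apoptotic genes was lower with IOX5 in all 4 numbers, by 0.27 on average, with overlapping groups. The ratio of BH3-only genes to effectors ran from −0.24 to −0.072 in DMSO and from −0.58 to −0.44 in IOX5, without overlap. Effectors and BH3-only genes together against anti-apoptotic genes differed by −0.064, with 2 numbers higher and 2 lower. These sums were dominated by *Mcl1*, *Bak1*, *Bax* and *Pmaip1*, and they are descriptions with no test.

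Pairs of members that bind one another or share a role gave different pictures. The log2 ratio of *Pmaip1* to *Mcl1* was lower with IOX5 in 4 of 4 numbers, by 0.42 on average. The ratio of *Bcl2l11* to *Bcl2* was lower in 4 of 4, by 0.65, and that of *Bcl2* to *Mcl1* was higher in 4 of 4, by 0.41. *Bax* to *Mcl1* was higher in 4 of 4 (0.37), though barely in replicate 2 (−2.087 in DMSO and −2.084 in IOX5). *Bax* to *Bcl2l1* was higher in 3 of 4 (0.23). For the other effector, *Bak1* to *Bcl2l1* was lower in 4 of 4 (−0.23). *Bak1* to *Mcl1* differed by −0.086, with 2 numbers higher and 2 lower. *Bax* to *Bcl2*, a ratio often quoted for the threshold of apoptosis, differed by −0.036, with 2 numbers higher and 2 lower, over sample values from 0.95 to 2.92. The 2 genes rose together with the block, and their ratio held no common direction.

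**Figure D4:**
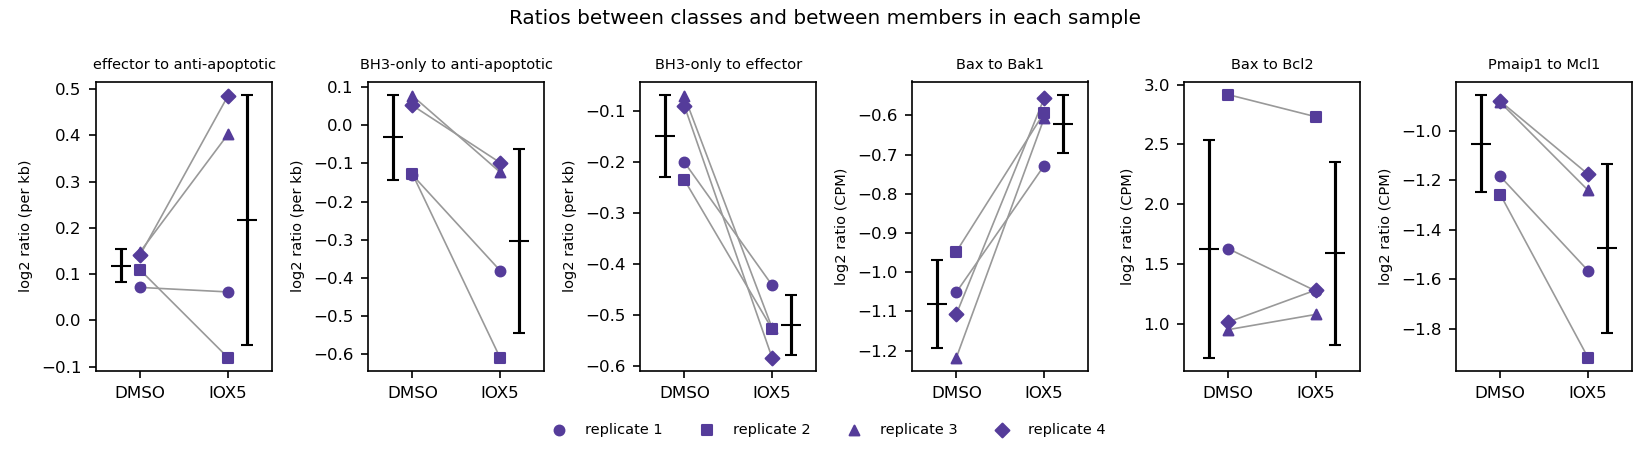
Log2 ratios between class sums (CPM per kb, 3 left panels) and between members (CPM, 3 right panels) in each sample. Grey lines join samples of the same replicate number, and black marks are the group mean and SD. The BH3-only to effector and *Bax* to *Bak1* ratios separate the groups, while the effector to anti-apoptotic and *Bax* to *Bcl2* lines run in both directions.

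Across the 8 samples, the pattern of log2 CPM most like a member's own was described by Pearson's r, with no test, over samples that share libraries and treatment. Among members, *Bax* and *Bbc3* were closest (r = 0.922), then *Bak1* and *Bid* (0.857), *Mcl1* and *Bad* (0.851) and *Bcl2l11* and *Bid* (0.836). *Bcl2l1* was closest to *Bbc3* (0.707) and *Pmaip1* to *Bid* (0.672). The highest r of *Bcl2* was that with *Bcl2l1* (0.236). Over all genes tested, the most similar to *Pmaip1* were *Tacc3* (0.993), *Ddx51* (0.983) and *Rbbp4* (0.976), to *Bax* *Def6* (0.976), *Jmjd6* (0.968) and *Gm26917* (0.961), and to *Bcl2l1* *Cdk5* (0.982), *Zbtb11os1* (0.981) and *Rgs11* (0.981).

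Of 62 further apoptosis genes listed, 52 were tested, with a median log2 fold change of −0.015 beside 0.017 for all genes. Without the block edgeR called 2 higher, both mitochondrial BH3-like genes of mitophagy and cell death that HIF-1 is known to induce. *Bnip3* went from 104.5 ± 30.4 to 206.8 ± 14.7 CPM (SD, n = 4 each; log2 fold change 0.98, edgeR adjusted p = 0.0469) and *Bnip3l* from 100.6 ± 17.0 to 158.0 ± 18.1 CPM (0.65, edgeR adjusted p = 0.0460). With the block the log2 fold changes were 1.03 (edgeR adjusted p = 0.000224) and 0.66 (edgeR adjusted p = 8.09e-05). The unblocked calls were fragile: leaving out DMSO replicate 1, 3 or 4 or IOX5 replicate 1, 2 or 3 left 0 of these genes called higher. Leaving out DMSO replicate 2 or IOX5 replicate 4 left 1. Without DMSO replicate 3 or 4 or IOX5 replicate 3, 0 of all genes tested were called either. Of the 52 further genes, none was called lower without the block by edgeR or DESeq2. At an unadjusted p under 0.05 in edgeR 8 of them were lower, and limma voom called 3 lower.

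In the blocked fit 5 of these genes passed upward and 4 downward, or 9.62% and 7.69% of the 52, which was below the shares of all genes called in that fit (11.2% and 9.43%). Beside *Bnip3* and *Bnip3l*, the higher genes were *Bcl2l14* (log2 fold change 0.56), a less studied relative of the family, *Casp8* (0.31), the initiator caspase that cleaves BID, and *Btrc* (0.29), an E3 ligase adaptor that can target MCL-1. The lower genes were *Vdac2* (−0.21), the outer membrane channel that binds BAK, *Cycs* (−0.30), cytochrome c, *Birc5* (−0.31), survivin, a mitotic and anti-apoptotic protein, and *Gsk3b* (−0.21), a kinase that marks MCL-1 for turnover. Without replicate 1 there were 3 higher and 1 lower, and without replicate 3 there were 3 higher and 0 lower. The lists of mitochondrial partners (0 of 6 above 0, 1 of 6 lower with the block) and of the apoptosome and released proteins (0 of 7 above 0, 1 of 7 lower with the block) had negative fold changes throughout, some of them near 0. In the death receptor arm 7 of 8 genes had positive ones, 1 of them called with the block. Of all genes tested 52.8% were above 0. The median log2 fold changes of these lists were −0.13, −0.10 and 0.13 without the block, where 0 of their genes were called. No executioner caspase and no listed regulator upstream of BH3-only genes passed either test, *Trp53* included (−0.066, edgeR adjusted p = 0.659).

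The other guardians were low or did not pass the test. *Bcl2l2*, which encodes BCL-W, was at 32.4 ± 4.35 and 37.7 ± 4.196 CPM (log2 fold change 0.22, edgeR adjusted p = 0.357). The *Bcl2a1* copies are near-identical, so their counts are uncertain. *Bcl2a1a* ran from 1.16 to 5.95 CPM (log2 fold change 0.088, edgeR adjusted p = 0.944), and *Bcl2a1b* and *Bcl2a1d* stayed below the filter at under 1 CPM in every sample. The BH3-only genes *Hrk* and *Bik* were below it too.

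Of genes that mark the labelled progenitors, *Kit* was at 44.0 to 133.2 CPM over all samples beside the *Cd34* values above. *Flt3*, on the same list, was low, at 0.47 to 4.68 CPM. *Cd3g* (T cells), *Ms4a1* (B cells) and *Col1a2* (stroma) had no reads in any sample. Other genes of those lists were present, with *Nkg7* at 4.87 to 26.5, *Cd79b* at 2.86 to 8.40 and *Pecam1* at 82.6 to 217.7 CPM, and *Nkg7* and *Pecam1* were higher with the block. The summed level of 8 macrophage markers was 164.0 to 223.8 CPM in DMSO and 246.6 to 538.4 in IOX5, without overlap. All 6 tested had positive log2 fold changes, 0 of 6 were called without and 3 of 6 with the block, and *C1qa* and *Marco* were near 0. The sum of 6 mast cell markers was 126.2 to 486.5 CPM in DMSO and 251.7 to 750.3 in IOX5, with 5 of 5 tested called higher with the block. Of 9 granulocyte markers 7 were called higher with the block (summed CPM 4766 to 7536 and 5460 to 8409), and of 8 progenitor markers 4. The 4 megakaryocyte markers summed to 16.3 to 64.5 CPM in DMSO and 38.9 to 117.7 in IOX5. Their median log2 fold change was 0.91, and 3 of 4 were called with the block. All 5 erythroid markers tested were above 0 (summed CPM 5.91 to 28.2 and 11.01 to 43.5), and 2 were called with the block. Without the block 0 genes of any of these marker lists were called, and with it 11.2% of all genes were called higher. The share of reads on mitochondrial genes was 1.27 to 1.37% in DMSO and 1.37 to 1.54% in IOX5. These values stand beside those of every member, and their part in the members' differences was not tested.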

How the data were processed

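Per the study's methods and the submitters' processing notes, the authors trimmed reads with Cutadapt 1.18, aligned them to GRCm38 with HISAT2 2.2.1 and counted reads per gene with HTSeq 2.0.1. The libraries were poly(A)-selected and directional. The deposited values are raw counts per Ensembl gene for 8 samples; the HTSeq strand setting and annotation release were not given in the sources used here. The 5 summary lines of each file (20.7 to 22.6% of reads) were left out, and 0 columns of unmapped samples were present. Of 54838 IDs, 54809 were named from GENCODE M21.

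Genes were filtered with filterByExpr and normalized with TMM, and IOX5 was compared with DMSO in edgeR 4.0.16 (R 4.3.3) by the quasi-likelihood test with Benjamini-Hochberg adjustment over the 12405 genes tested. Replicate numbers are shared by the groups in the labels. Deviations from the group means of same-numbered samples correlated at 0.758, 0.744, 0.732 and 0.636 for numbers 1 to 4. The highest value between different numbers was 0.685, for numbers 3 and 4, and it exceeded the same-number value of 4. The pairing of numbers 3 and 4 is thus less certain than that of 1 and 2. The number was taken to pair the samples, and a blocked fit stands beside each value whose call it turned. Alternatives were DESeq2 1.42.0, limma voom 3.58.1, other scaling factors and filters, leaving out each sample, and removal of length and GC trends. Fits were tested on simulated data whose planted log2 fold changes were larger than those of the members. How often they find changes of the members' size was not tested. Levels per kb used the union of GENCODE exons. CPM on the log2 scale had a prior count of 2.

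The members and the gene lists were chosen with earlier results of these data known. Genes named beside the members were those called in either edgeR fit, up to 3 a list by unadjusted p, 5 genes named in any case (*Bcl2l2*, *Bcl2a1b*, *Bcl2a1d*, *Bnip3*, *Bnip3l*), and the 3 genes most correlated with the lowest-p member of each class. Others (*Trp53*, *Hrk*, *Bik*, *Bcl2a1a*, *Cd34* and other markers) were named after their values were seen.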

Additional observations from a re-analysis of the deposited data

How the results depend on the processing

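With the replicate block edgeR called 1394 genes higher and 1170 lower, 4 members higher and 1 lower, and 5 further apoptosis genes higher and 4 lower. Leaving out numbers 1 to 4 in that fit gave 994, 1119, 642 and 1355 genes higher, 650, 1016, 403 and 1058 lower, 3, 3, 2 and 2 members higher, 1 lower each time, 4 and 5 further apoptosis genes higher without 2 and 4, and 1, 4 and 4 lower without 1, 2 and 4. With the block and length and GC trends removed the counts were 1555, 1158, 3, 1, 8 and 5. DESeq2 called 489 and 602 genes, 1 member higher and 1 lower. Limma voom called 426 and 610 genes, 2 members higher, 1 lower and 3 further apoptosis genes lower. Without a low-count filter 73 genes were lower. At an adjusted p under 0.1 there were 332 and 486 genes, with *Bax* (0.46) and *Pmaip1* (−0.34) the 1 member higher and lower.

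Log2 fold changes newly past the threshold with the replicate block were 0.50 for *Bcl2*, 0.23 for *Bcl2l1*, 0.46 for *Bax*, 0.33 for *Bbc3* and −0.34 for *Pmaip1*. With trends also removed they were 0.56, 0.21, 0.34 and −0.28 for *Bcl2*, *Bcl2l1*, *Bax* and *Pmaip1*. Without numbers 1 to 4 they were 0.47, 0.50, 0.49 and 0.53 for *Bcl2*, 0.54, 0.51, 0.40 and 0.39 for *Bax*, −0.33, −0.33, −0.34 and −0.35 for *Pmaip1*, and 0.39 and 0.39 for *Bbc3* without 1 and 2. DESeq2 gave 0.47 for *Bax* and −0.32 for *Pmaip1*, and limma voom 0.50, −0.38 and 0.43 for *Bax*, *Pmaip1* and *Bbc3*. *Bak1* turned sign with the block (−0.00023), with limma voom (−0.0028), with the block without numbers 3 and 4 (−0.015 and −0.042), and with trends removed with (−0.050) and without (−0.049) the block, the last chosen after seeing the data. The cause was not tested. The replicate block changed no other call on a member.

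Leaving out 1 sample at a time without the block gave 0 to 130 genes higher and 0 to 333 lower, with 0 of both when IOX5 replicate 3 or either of DMSO replicates 3 and 4 was dropped, and 0 members higher and 0 to 1 lower. Further apoptosis genes higher were 0 to 1 and lower 0 to 1. Log2 fold changes ran from 0.25 to 0.74 for *Bcl2*, 0.20 to 0.29 for *Bcl2l1*, −0.057 to 0.17 for *Mcl1*, 0.39 to 0.55 for *Bax*, −0.045 to 0.057 for *Bak1*, 0.27 to 0.39 for *Bbc3*, −0.40 to −0.28 for *Pmaip1*, −0.25 to −0.031 for *Bcl2l11*, −0.12 to −0.020 for *Bid* and 0.090 to 0.22 for *Bad*. Differences in log2 ratio ran from 0.010 to 0.20 for effector to anti-apoptotic and −0.34 to −0.17 for BH3-only to anti-apoptotic. They ran from −0.40 to −0.34 for BH3-only to effector, −0.42 to 0.39 for *Bax* to *Bcl2*, and −0.011 to 0.90 for *Bcl2* to *Mcl1*. From the mean of log2 levels over all samples, effector to anti-apoptotic turned sign (−0.042). The same setting gave −0.29 for BH3-only to anti-apoptotic and −0.25 for BH3-only to effector.

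The lowest read counts of a member in a sample were 174 for *Bbc3* and 176 for *Bcl2*. How depth bears on their errors was not tested.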
